A study of Drosophila melanogaster with 2 samples.

Results

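The 314 X chromosome promoter peaks described here are sites recovered with an antibody against GFP from whole Drosophila melanogaster prepupae that expressed Dachshund fused to GFP. They come from the authors' irreproducible discovery rate (IDR) list, made by a procedure that favours peaks ranked alike in replicates. Those on X were taken if the summit lay within 500 bp of a transcription start site (TSS). Start sites of protein-coding and non-coding RNA genes were used. The IDR list held 4137 peaks on genome build dm6, of which 885 were on X, so the 314 were 35.5% of the X peaks, and the other 571 X peaks were distal. Promoters of the autosomes held 1252 peaks by the same rule. Chromatin immunoprecipitation and sequencing (ChIP-seq) was done on sonicated chromatin of 1 group, with 2 biological replicates that the labels number 1 and 3. The labels also state an age of 48 days, which does not match a prepupa and was set aside. The animals were of a stable transgenic line, dac-GFP, in which eGFP is fused to the C-terminus of the product of dac, and males and females were mixed. There was no second genotype, stage or sex-sorted sample, and a control library named in the labels was not analysed here, so sites of the tagged protein and non-specific recovery at open promoters cannot be told apart. Because animals of both sexes and all tissues were pooled, the sex and the cells behind a peak cannot be told apart either.

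Dachshund is a nuclear protein of the SKI and DACH family that acts with Eyes absent and Sine oculis in the retinal determination network, and flies that lack it have defects of the eyes, the legs and the mushroom bodies. The X chromosome of flies differs from the autosomes in that males carry a single copy, whose transcription is raised by the MSL complex with the help of CLAMP, a protein that binds GA repeats. Many fly promoters are divergent, meaning that neighbouring genes start back to back and are read away from each other. A promoter with a start site in 1 direction is called single-direction below.

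Sequences are shown for 6 of the 314 summits, each as a window of 201 bp on the strand of the nearest gene, read from the RefSeq Release 6 assembly (dm6). The windows were moved upstream where they would have reached past base 30 of a transcript, and where the strongest candidate then held more exonic sequence than that, or lost its summit, the next was taken. Ugalt, the strongest site of the series (chrX:2703823-2704023, minus strand), and ND-ASHI, the strongest divergent promoter that could be shown (chrX:6679266-6679466, minus strand), have the summit base in capitals.
Ugalt: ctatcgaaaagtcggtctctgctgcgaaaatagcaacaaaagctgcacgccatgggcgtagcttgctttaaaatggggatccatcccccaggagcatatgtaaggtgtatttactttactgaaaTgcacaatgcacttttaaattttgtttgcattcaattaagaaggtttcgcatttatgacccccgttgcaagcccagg
ND-ASHI: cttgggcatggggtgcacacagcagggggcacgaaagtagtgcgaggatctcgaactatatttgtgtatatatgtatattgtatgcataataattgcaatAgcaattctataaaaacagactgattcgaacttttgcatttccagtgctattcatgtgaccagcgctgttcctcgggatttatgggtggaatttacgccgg
The other windows have a searched motif in capitals, on whichever strand it lay, and they show motifs tied to fly promoters or to dosage compensation at their strongest holders that could be shown. RpL36 was instead taken as the strongest ribosomal protein gene with its motif, which stronger peaks such as that of CG11151 (signal 527) also hold. CG32772 (chrX:4908931-4909131, plus strand) has a CA repeat whose first match starts 21 bp upstream of the TSS. Hexo2 (chrX:8709323-8709523, plus strand) has a GA repeat, the site of GAGA factor and CLAMP, read on the opposite strand.
CG32772: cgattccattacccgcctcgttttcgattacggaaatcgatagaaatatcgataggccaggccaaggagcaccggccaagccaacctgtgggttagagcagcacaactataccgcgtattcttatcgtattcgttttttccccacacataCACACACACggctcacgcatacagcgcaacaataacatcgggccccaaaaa
Hexo2: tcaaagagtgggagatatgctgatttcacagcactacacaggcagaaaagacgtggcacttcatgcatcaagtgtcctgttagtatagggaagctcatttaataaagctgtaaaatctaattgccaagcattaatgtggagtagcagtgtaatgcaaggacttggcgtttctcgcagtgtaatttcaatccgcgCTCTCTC
In mthl1 (chrX:16640696-16640896, plus strand) the capitals mark the site of the core promoter factor M1BP on the opposite strand. In the ribosomal protein gene RpL36 (chrX:629454-629654, minus strand) they mark the DNA replication-related element, which starts 6 bp downstream of the annotated start.
mthl1: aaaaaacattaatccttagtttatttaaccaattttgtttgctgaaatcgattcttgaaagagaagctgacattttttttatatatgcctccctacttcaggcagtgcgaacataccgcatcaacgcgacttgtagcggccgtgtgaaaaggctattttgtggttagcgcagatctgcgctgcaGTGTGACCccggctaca
RpL36: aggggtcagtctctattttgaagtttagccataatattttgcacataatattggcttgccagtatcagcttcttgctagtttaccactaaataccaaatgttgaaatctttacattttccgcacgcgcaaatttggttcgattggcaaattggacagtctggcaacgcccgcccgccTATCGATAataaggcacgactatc

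The strongest X promoter peak, at Ugalt, was also the strongest of all 4137. Ugalt (FBgn0024994) encodes a UDP-galactose transporter of the Golgi. Its peak (X, 2703707 to 2704079) had a signal of 2090.3, with 822 in replicate 1 and 1275 in replicate 3, and ranked 1 in both, with the summit 47 bp upstream of the TSS. Signal is the authors' value per peak on an unstated scale that differs between lists, so lists are compared by rank, where 1 is the highest. The second peak was at the non-coding RNA gene lncRNA:CR44619 (X, 12750846 to 12751656, signal 1552, 470 bp upstream, ranks 3 and 8), and another peak of 776 lay 489 bp downstream of the same start. The third was in ph-p (X, 2136931 to 2137623), 1 of the paired polyhomeotic genes of the Polycomb repressive complex 1. It had a signal of 1102, with 469 in replicate 1 and 643 in replicate 3, at ranks 17 and 30. These 3 sites stood high in both replicates.

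MFS10, a membrane transporter gene of the major facilitator family, followed at 1058 (172 bp upstream, ranks 35 and 28), and bbx, an HMG-box gene, at 937 (202 bp upstream, ranks 28 and 53). Hexo2, a hexosaminidase gene, had 841 and TRAM, whose product works at the translocation channel of the endoplasmic reticulum, had 779. The peak of CG32772 had 776.4 and stood lower in replicate 1 (rank 159) than in replicate 3 (rank 49). CG8034 had 772. The signalling genes among the 20 strongest were sgg, the GSK3-type kinase of the Wingless pathway (726, 198 bp upstream, ranks 103 and 101), and mgl, a Megalin-type endocytic receptor (720). The neural genes were elav, a neuronal RNA-binding protein (667, 265 bp upstream, ranks 126 and 123), dnc, the cAMP phosphodiesterase (659, 288 bp upstream, ranks 111 and 134), and moody, a receptor of blood-brain barrier glia (656, ranks 189 and 99). CG3009 (659), CG17896 (638), pdgy, an acyl-CoA synthetase gene (638), the back-to-back pair bves and Stt3A (614) and the bZIP factor gene Atf3 (602) completed the 20. Of the 20 strongest, only the peak of bves and Stt3A was at a divergent promoter.

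Over all 314 the signal ran from 110.5 to 2090.3, with a median of 189.9 and quartiles of 139.8 and 315. The 3 lowest were CG44774 (110.5), pdgy (110.9, a second peak of this gene) and Tlk (111.2). Autosomal promoter peaks had a median of 186, and distal X peaks one of 174. Of the 314, 161 (51.3%) were above the median of all promoter peaks, against 622 of 1252 on autosomes (49.7%, Fisher's exact test, two-sided, adjusted p = 0.659). This is 1 of 6 comparisons of X with autosomes whose p-values were adjusted together (Benjamini-Hochberg). They count peaks or genes, neighbours among which are not independent, and not animals. At the top of the range, 12 of the 314 were among the 100 strongest IDR peaks and 57 among the 500 strongest. For scale, the set was 314 of all 4137 IDR peaks. Matching counts of autosomal promoter peaks are not given, so this is a description. By the share above the median signal the set was not told apart from autosomal promoters, with a difference of 1.59 percentage points.

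The IDR procedure favours peaks that rank alike in the replicates, so agreement between them was selected for in these peaks. Not all ranked alike, as 3 members had ranks over 10-fold apart between the replicates. A peak in the relaxed lists of both replicates overlapped 304 of the 314, and over these the Spearman correlation of signal was 0.762 (0.736 over 1148 autosomal promoter peaks). Neighbouring peaks can match the same replicate peak and still enter as separate points, as those of ph-p do in replicate 3 (rank 30). Peaks also share libraries and local sequence, so the correlation is a description. Of the 314, 231 (73.6%) overlapped peaks among the strongest of both replicates, counted to the length of the IDR list, against 67.5% of autosomal promoter peaks (Fisher's exact test, adjusted p = 0.0822). A weak peak beside a strong one can take its rank, as at CG32772 (signal 228, ranks 159 and 49). With an overlap of at least 50% of the peak the shares were 61.8 and 59.1% (Fisher's exact test, adjusted p = 0.484). Replicate 1 lacked 9 of the 314, or 2.87% (95% Wilson interval 1.52 to 5.36), against 88 of 1252 on autosomes (7.03%, 5.74 to 8.58). This difference passed in a second family of 9 comparisons chosen after the data were seen (Fisher's exact test, two-sided, adjusted p = 0.0166). The 9 peaks were nearest to Rnp4F, TH1, Gbeta13F, CG14818, CG14777, COX6B, Hr4, NELF-B and rush, with signals from 111.2 to 249.5, and they were named after their values were seen. TH1 and NELF-B encode subunits of the negative elongation factor NELF. Replicate 3 lacked a single peak, CG17167, against 16 of 1252 (1.28%, Fisher's exact test, adjusted p = 0.312).

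**Figure D1:**
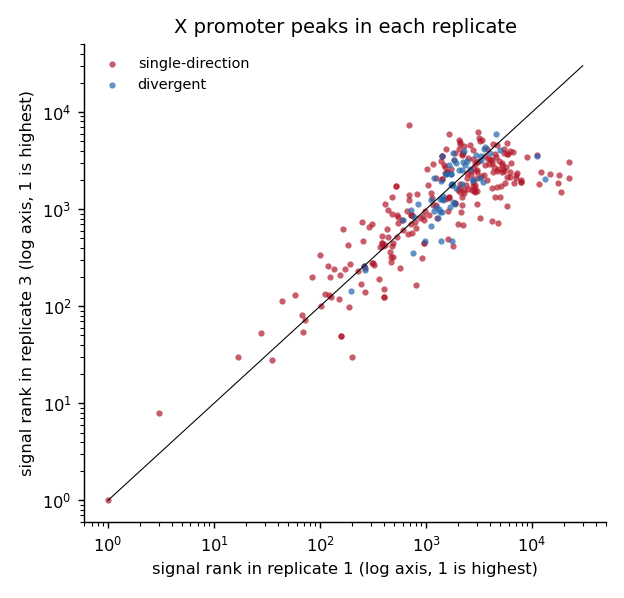
Signal rank of the 304 X promoter peaks found in both replicates, replicate 1 on the horizontal and replicate 3 on the vertical log axis, each point 1 peak and the line equal ranks. Points follow the line from Ugalt at rank 1 in both, and spread most among the weak peaks, mainly towards low standing in replicate 1.

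A promoter peak was found at 302 of the 2196 protein-coding genes on X, or 13.8% (12.4 to 15.3), and at 33 annotated non-coding RNA entries. The 33 include entries of 18 to 24 bp that lie inside mir-2491, mir-4962 and mir-9377, which are counted as well. They are thus not 33 separate genes, and the share over all such X entries is not given. On the autosomes the share of protein-coding genes was 12% (1409 of 11749 genes, 11.4 to 12.6). The ratio was 1.15 and did not pass the adjusted threshold (Fisher's exact test, two-sided, p = 0.0233, adjusted p = 0.0699). A single start site was annotated for 1512 of the 2196 X genes and 8734 of the 11749 autosomal genes. Each further start site adds a window, and these shares are not adjusted for it. In the peaks of replicate 1 alone the ratio was 1.21 (12.3% against 10.2%, Fisher's exact test, adjusted p = 0.0202), and it was also 1.21 with a window of 1000 bp (adjusted p = 0.00142). In replicate 3 alone it was 1.08 (Fisher's exact test, adjusted p = 0.211). By arm the share was 12.4% on 2L, 11.6% on 2R, 12.4% on 3L, 11.9% on 3R and 5.0% on 4, so X was the highest of the 6, and it was the highest in each replicate alone, with 12.3% in replicate 1 and 14.9% in replicate 3. In the IDR list its interval overlapped those of the large autosomal arms. Along X, in steps of 4 Mb from the left end, the share lay between 8.93% in the fourth step and 18.4% in the second. Of all X peaks 35.5% were at promoters, against 38.5% on autosomes (Fisher's exact test, adjusted p = 0.164). The direction turned in replicate 1 alone (35.2 against 34.2%), and X was lower past the threshold in replicate 3 alone (37.7 against 43.2%, Fisher's exact test, adjusted p = 0.00881) and within 200 bp (19.4 against 24.3%, adjusted p = 0.0136).

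The X peaks differed from autosomal ones in the kind of promoter. Of the 314 summits, 67 were at divergent promoters, with back-to-back starts both within 500 bp of the summit (21.3%, 17.2 to 26.2), against 384 of 1252 on autosomes (30.7%, 28.2 to 33.3). Fisher's exact test, two-sided, gave p = 0.00103 and an adjusted p of 0.00619. The direction was the same in replicate 1 alone, where the call was lost (21.2% against 26.9%, Fisher's exact test, adjusted p = 0.125), and within 200 bp of the TSS (15.7% against 21.7%, adjusted p = 0.156).

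This difference was larger in the strongest 25% of the peaks than in the rest. In the strongest 25% of the X promoter peaks 6 of 78 summits were at divergent promoters (7.69%, 3.57 to 15.8), against 100 of 313 in the strongest 25% on autosomes (31.9%, 27.0 to 37.3, Fisher's exact test, two-sided, p = 3.83e-06). Among the rest the shares were 61 of 236 (25.8%) and 284 of 939 (30.2%, Fisher's exact test, p = 0.201). Among the rest X was also lower in replicate 3 alone (24.3 against 31.2%, Fisher's exact test, p = 0.0318), with protein-coding starts only (21.0 against 29.6%, p = 0.00963) and within 1000 bp (25.9 against 31.7%, p = 0.0478), but not in replicate 1 alone (26.4 against 26.1%, p = 0.931). In a logistic model the difference between these differences was -1.51 on the natural log odds scale (SE 0.472, n = 1566 peaks, likelihood ratio test, p = 0.000296). It held in replicate 1 alone (-1.98, n = 1424, p = 1.93e-05) and in replicate 3 alone (-1.36, n = 1737, p = 0.000614), but not with a window of 1000 bp, where 19 of 107 strong X summits were divergent (-0.48, n = 2037, p = 0.110). On the large autosomal arms the strongest 25% held between 22.7% divergent summits on 2R and 43.8% on 2L. This split was chosen after the data were seen. The tests take peaks as independent, although a gene such as Ptpmeg2 enters the strongest 25% with several peaks. The SE and p-values do not allow for this. The 6 strong X sites, named after their values were seen, were bves and Stt3A (614, ranks 196 and 143), ND-ASHI and Fum1 (534, ranks 265 and 237), CG2930 and yin (404), tty and fliI (339), CG3032 and CG4593 (333) and Dus2 and Fbxl4 (328). Stt3A encodes the catalytic subunit of oligosaccharyltransferase, and ND-ASHI and Fum1 encode a subunit of mitochondrial complex I and a fumarase.

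**Figure D2:**
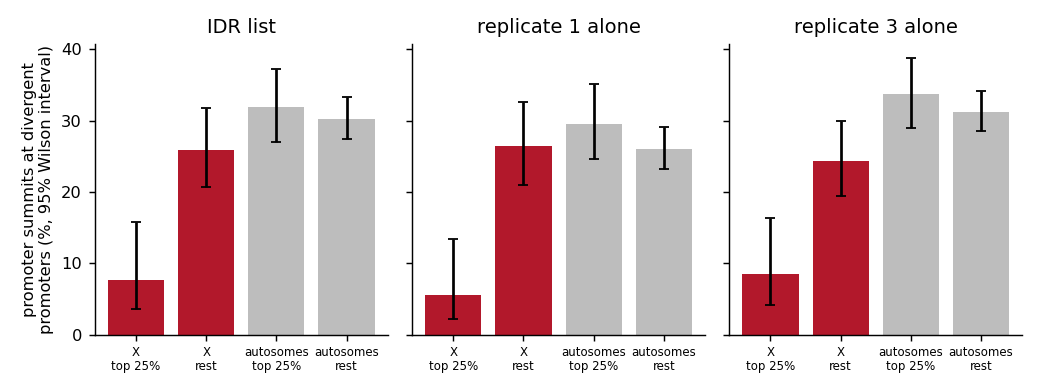
Share of promoter summits at divergent promoters (vertical axis, %, bars with 95% Wilson intervals) in the strongest 25% and the rest of the peaks on X (red) and autosomes (grey), for the IDR list and for each replicate alone. The bar of the strongest 25% on X, 7.69% in the IDR list, is the lowest in each panel, below 31.9% on autosomes.

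Counted over genes, the higher X share, which did not pass over all genes, lay among genes with no divergent partner. Such genes have no gene starting back to back within 500 bp. A promoter peak was found at 178 of 1591 such X genes (11.2%, 9.73 to 12.8), against 663 of 8267 on autosomes (8.02%, 7.45 to 8.62, Fisher's exact test, adjusted p = 0.000514 over the 9 comparisons). Among genes with a partner the shares were 124 of 605 (20.5%) and 746 of 3482 (21.4%, Fisher's exact test, adjusted p = 0.629). The interaction was -0.42 on the natural log odds scale (SE 0.141, n = 13945 genes, likelihood ratio test, p = 0.00249). Of genes without a peak, 25.4% on X and 26.5% on autosomes had a partner (Fisher's exact test, adjusted p = 0.392), and of genes with a peak 41.1 and 52.9% (adjusted p = 0.000813). The number of start sites moved with this result. Of the X genes with a peak, 36.8% had a single start site, against 52.0% of the autosomal genes with one. Within genes with a single start site the interaction was -0.0038 (n = 10246, p = 0.986), with peaks at 4.66% of the X genes and 5.14% of the autosomal genes that lacked a partner. With the number of start sites as a covariate it was -0.46 (n = 13945, p = 0.00158), and in replicate 1 alone it was -0.28 (p = 0.0557). In a model without the interaction, the X term was 0.19 on the same scale (SE 0.0694). It was 0.09 (SE 0.072) with the number of start sites as a covariate, and -0.105 (SE 0.108) in genes with a single start site. Among all genes with 1 start site 7.34% on X and 8.39% on autosomes had a peak, so X was the lower there. Among genes with 2 to 3 start sites 25.9% on X and 19.8% on autosomes had a peak, and with 4 or more the shares were 41.1 and 42.0%. What part start sites have in the result was not tested further.

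**Figure D3:**
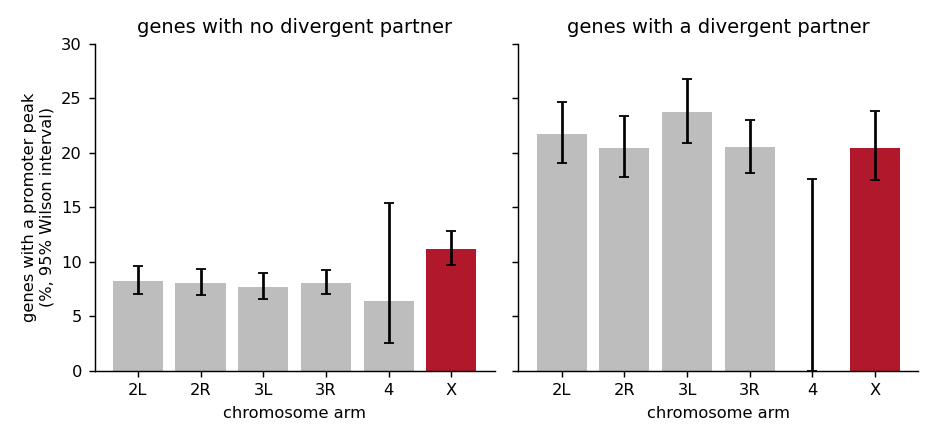
Share of protein-coding genes with a promoter peak (vertical axis, %, bars with 95% Wilson intervals) on each chromosome arm, for genes without (left) and with (right) a divergent partner, X in red. X is the highest bar on the left (11.2%) and lies among the large autosomal arms on the right (20.5%).

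Summits on X lay mostly upstream of the start. Of the 314, 238 were upstream (75.8%, 70.8 to 80.2), against 79.5% on autosomes (adjusted p = 0.198 by Fisher's exact test), and the median position was 138 bp upstream (120.5 bp on autosomes). The fullest bin of 50 bp ran from 200 to 150 bp upstream on X, with 47 of the 314 summits, and from 150 to 100 bp on autosomes, with 15.7%. Upstream peaks on X had a median signal of 204 and those at or downstream of the start one of 152. In the strongest 25% 69 of 78 were upstream (88.5%), against 71.6% of the rest (Fisher's exact test, two-sided, adjusted p = 0.00437 over 6 tests of strong against weaker peaks on X and autosomes), and the same contrast on autosomes was 81.5 against 78.8% (adjusted p = 0.400). Whether X and autosomes differ in it was not tested. By annotation 119 X summits were outside genes, 120 in introns, 60 in 5' UTRs, 11 in other exons, 3 in 3' UTRs and 1 in coding sequence. Just inside the window were Nost (493 bp, signal 139), Ypel (496 bp, 127) and CG17896 (499 bp, 638), and just outside it prage (503 bp, 552), mnb (503 bp, 189.8) and Tlk (504 bp, 184).

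**Figure D4:**
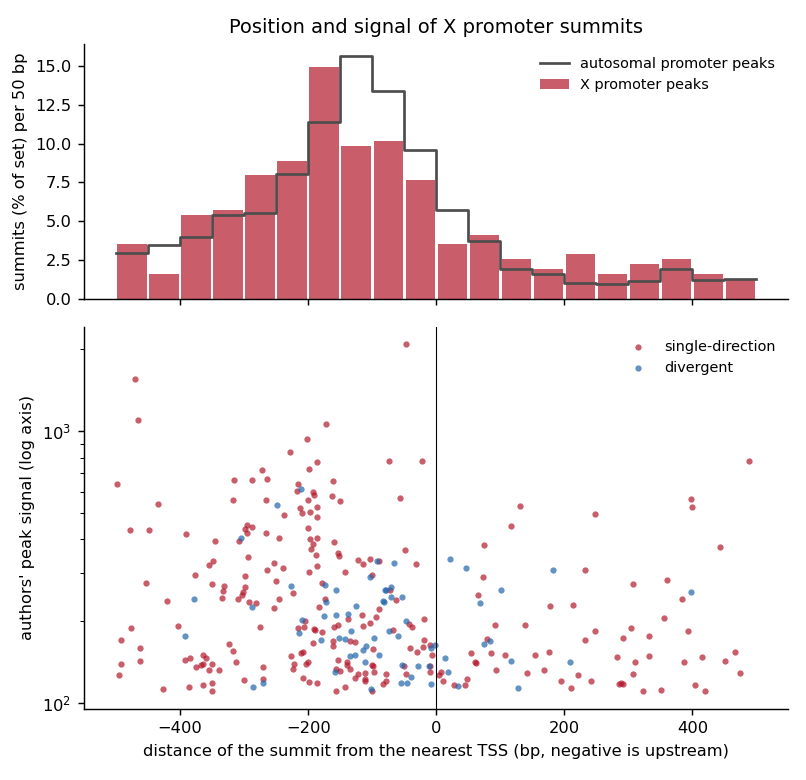
Distance of promoter summits from the nearest TSS (horizontal axis, bp, negative upstream), as the share of summits per 50 bp for X (red bars) and autosomes (line) above, and as the authors' signal of each X peak (log axis) below, with divergent promoters in blue. X summits are fullest 200 to 150 bp upstream, and blue points are scarce among the highest signals.

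Some genes held several promoter peaks. Among 54 X genes with 2 or more, 7 had at least 3. Ptpmeg2, a protein tyrosine phosphatase gene, had 5, with signals of 599, 505, 403, 324 and 129. The 4 peaks of dnc had 659, 559, 258 and 133. The peaks of mamo, a zinc-finger gene, were also 4, the strongest (309 and 261) shared with lncRNA:CR44655 and nearer to its start. Both of these match the same peak of replicate 1 (rank 1114). Moe, which encodes the membrane-cytoskeleton linker Moesin, had 3 peaks of 234, 185 and 154, and chas had 344, 296 and 118. CG32772 and Tlk, a Tousled-like kinase gene, also had 3 each, with pairs of peaks that overlap (776 and 228 at CG32772, 230 and 111 at Tlk), so these are not separate sites. The 7 genes had from 2 (CG32772) to 9 (dnc) annotated start sites, each of which adds a window. In all, 48 of the 314 overlapped another IDR peak. X genes with a promoter peak were longer than the other X genes (median 5113 against 2326.5 bp), and autosomal genes showed the same contrast (3745 against 1979 bp). Of the X genes with a promoter peak, 26.8% also held a distal X peak inside the gene, against 7.97% of the others. These values carry no test.

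Gene lists were read as counts beside the 13.8% over all X genes, with no test. In all, 51 of the 221 listed X genes had a promoter peak (23.1%). Of 33 genes of the morphogen and signalling pathways 8 had one (24.2%). They were led by sgg, csw, the SHP2-type phosphatase of receptor tyrosine kinase signalling (313), fw, a selectin-type adhesion gene (269), svr, a carboxypeptidase gene (262), and fz3, a Wingless receptor (208). The Notch gene N, arm (beta-catenin), dsh and the Dpp-pathway genes brk and sog had none. Developmental transcription factors had 4 of 32 (12.5%), namely elav, listed with them, ct (282, ranks 1987 and 695), btd (134) and disco-r (120). The peak of btd stood far lower in replicate 1 (rank 18102) than in replicate 3 (rank 2264), and that of disco-r had ranks 5838 and 3659. Genes without a peak are named from the lists after their values were seen. The eye genes oc and lz, the proneural genes ac and sc and the optomotor-blind gene bi had none.

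Chromatin and transcription genes had 6 of 31 (19.4%). The polyhomeotic pair stood out, with peaks of 1102 and 527 at ph-p and of 294 and 144 at ph-d. Top1 (277), the Myc antagonist Mnt (242, ranks 4770 and 724), the SAGA subunit gene e(y)2 (163) and Bap60, of the Brahma complex (147), were the others. Cell cycle, growth and polarity genes had 8 of 30 (26.7%), led by Mer, the Merlin tumour suppressor (292, ranks 660 and 949), mei-41, the ATR-type checkpoint kinase (246, with no peak in replicate 1), Mnt, par-6 (234) and Moe. The ecdysone list had 3 of 16 (18.8%), sgg and weak peaks at the nuclear receptor genes Hr4 (128) and usp (112.5), the partner of the ecdysone receptor, and br had none. With replicate 1 alone this count was 1, and with replicate 3 alone it was 2. Neuron genes had 7 of 20 (35.0%), led by elav, dnc, the adhesion gene sdk (391), the innexin gene ogre (185) and Fas2 (174). The other 13 had none, among them fne, Appl, Nrg, Sh, cac, para and rut. RNA processing genes had 4 of 11 (36.4%), the splicing factor gene U2af50 (315), sol (173), which encodes a calpain-type protease although the list holds it, Sxl (151) and its relative ssx (117). Housekeeping genes had 6 of 25 (24.0%), led by Ugalt, the glycolytic Gapdh2 (556), Act5C (177), car (157) and Zw (124). Several of these counts rest on a peak that lies nearer to another gene, as at mei-41 (TH1), par-6 (CG8188), e(y)2 (CG11695), Bap60 (CG12096), U2af50 (PIG-Q) and car (Grip84). The same holds for Act5C, whose peak is 480 bp from its start and nearer to lncRNA:CR45668. Among the signalling genes it holds for O-fut2 (CG14777), which had no peak in replicate 1.

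Of the translation genes, cytosolic ribosomal protein genes had a peak at 7 of 14, RpS28b (204), RpS5a (191), RpL22 (185), RpL17 (163.1), RpL36 (163.0), RpS14b (160.1) and RpS19a (160.0). The 7 signals lay close together, near the median of the 314, and each summit was 2 to 74 bp from its start. The mitochondrial ribosomal protein genes had 0 of 11 and translation factors 1 of 7, eIF4H1 (190). The difference between these lists was not tested.

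Genes of dosage compensation and sex determination had 1 of 10. It was Sxl, the switch gene of sex determination, with a weak peak 107 bp downstream of a start (151, ranks 3031 and 2501). The X-linked RNA genes roX1 and roX2 of the MSL complex, its acetyltransferase gene mof and the X-linked signal genes sisA, sc and run had none. The autosomal genes of the complex, msl-1, msl-2, msl-3 and mle, and Clamp had 0 promoter peaks as well. Of all protein-coding genes 13.8% on X and 12% on autosomes had a peak, so lists this short decide nothing about these genes.

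The sequence around the summits was searched for 20 motifs within 100 bp of the summit on both strands. None differed between X and autosomal promoter peaks at an adjusted p under 0.05 (Fisher's exact test, two-sided, 0% of the 20), and 3 had an unadjusted p under 0.05. The CA repeat CACACAC was at 37 of 314 X summits (11.8%, 8.67 to 15.8) and 7.83% of autosomal ones (Fisher's exact test, p = 0.0321, adjusted p = 0.284), and around the start sites of all X genes it was at 6.28%, against 4.91% for those of all autosomal genes. Searched in whole peaks it was at 21.3% on X and 13.7% on autosomes, which passed (Fisher's exact test, adjusted p = 0.0219). X peaks were on average slightly narrower than autosomal ones (330.3 against 342 bp). The homeodomain core TAATTA was at 11.1 and 16.5% (Fisher's exact test, p = 0.0184, adjusted p = 0.284) and the M1BP site GGTCACAC at 1.27 and 3.43% (p = 0.0426, adjusted p = 0.284). The GA repeat GAGAGAG, which CLAMP and GAGA factor share, was at 19 X summits (6.05%, 3.91 to 9.26) and 7.59% of autosomal ones (Fisher's exact test, adjusted p = 0.792), and around 3.37% of all X start sites. The direction of this small difference turned in replicate 1 alone and in other windows.

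The DNA replication-related element TATCGATA was at 9 X summits (2.87%) and 3.19% of autosomal ones, where the start sites of all X genes had it at 11.9% and those of all autosomal genes at 7.07%. The BEAF-32 core CGATA was at 28.0% of X summits and at 46.1% of all X starts. These windows differ in place, since summits lie upstream of the starts, and in GC content (median 37.3% at X summits and 42.3% at X starts). Around the start sites of the 302 X genes with a peak TATCGATA was at 9.93%. Among the motifs, GAGAGAG is part of the longer GA repeat that was also searched, and CGATA is part of TATCGATA. Over all 2080 6-mers, counted after the data were seen, none passed (0% of those tested, Fisher's exact test), 129 had an unadjusted p under 0.05, and the smallest p was 0.000659, at GTGCAA (18.8 against 11.3%, adjusted p = 0.508). Summit GC content fell among strong peaks, with 37.2% of the strongest 25% on X above the median against 52.1% of the rest (adjusted p = 0.0394 by Fisher's exact test), where the autosomes showed 36.4 against 52.2%.

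**Figure D5:**
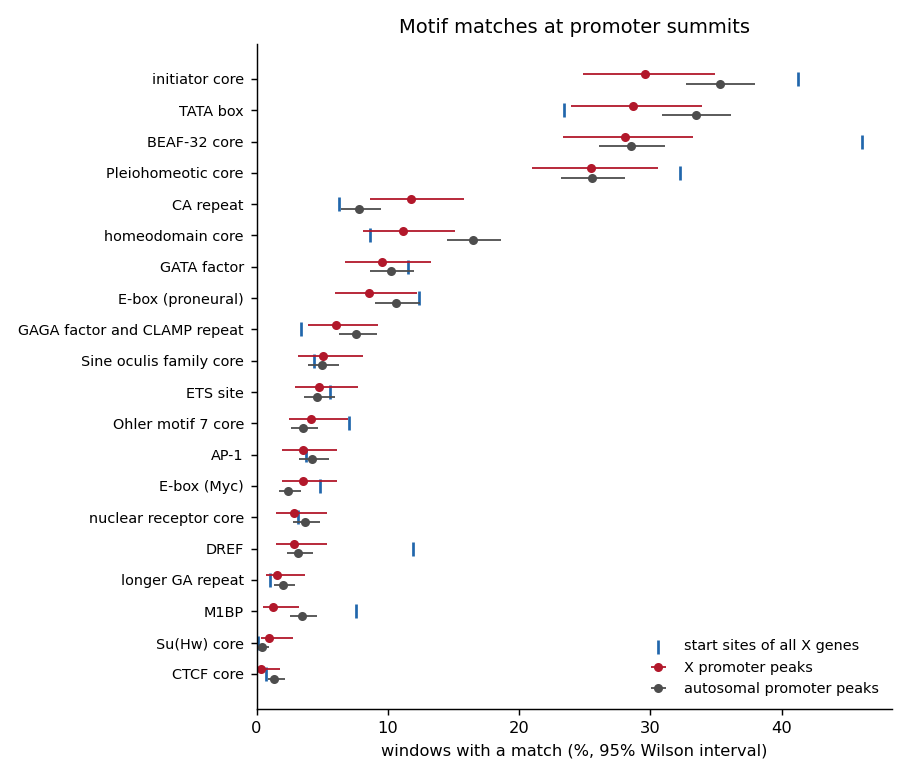
Share of 201 bp windows with a match to each of the 20 motifs (horizontal axis, %, points with 95% Wilson intervals) at X (red) and autosomal (grey) promoter summits, with blue ticks for windows around the start sites of all X genes. Intervals of X and autosomes overlap for each of the 20 motifs, and the ticks of the initiator, BEAF-32, DREF and M1BP motifs lie above both.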

How the data were processed

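The files analysed hold peaks of anti-GFP ChIP-seq from 2 replicates. Per the labels, the deposited lists are on builds dm6 and dm3, and per the file headers in the deposited description the authors made them from the replicate alignments and a control. The aligner, the caller, the versions of both and the threshold of IDR were not given in the sources used here, and read depth is unknown. Each peak's signal was deposited by the authors without a stated scale, and its q-value as −log10 q, which is at the cap throughout the IDR list and was not used to rank peaks. Each replicate's relaxed list, deposited as input to IDR, holds 30000 peaks. On dm3 the IDR list had 4165 peaks with 893 on X, and nothing else was computed on that build.

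Start sites were those of Ensembl release 115 (13945 protein-coding genes), and sequence from RefSeq Release 6. Each replicate alone stands for its highest-signal peaks, as many as the IDR list holds. Peaks of different lists were matched by an overlap of at least 1 bp, and the highest-signal match was taken. Shares were compared by Fisher's exact test (scipy 1.17.1) with Benjamini-Hochberg adjustment, and interactions by logistic models (statsmodels 0.14.6, Python 3.11.15) with likelihood ratio tests. Peaks and genes are the units, so p-values and Wilson intervals cover counting only, not the spread between animals. The code was tested on simulated data. Named genes are those of the 20 strongest peaks, up to 5 per list, those with 3 or more peaks, those at the edges of the window and of the signal range, and those shown as sequence. Holders of 4 motifs were shown although no motif passed. Others are marked as named after their values were seen. The peaks, lists and motifs were chosen with earlier results of these data known. Alternatives were each replicate alone, IDR peaks above the median signal, windows of 200 and 1000 bp, protein-coding starts only, merged peaks, an overlap of 50% and other motif windows. The interactions, the strongest 25%, the 9 further comparisons and the 6-mers were added after the data were seen.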

Additional observations from a re-analysis of the deposited data

How the results depend on the processing

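Most results kept their direction and their side of the threshold under the alternatives run. With each replicate alone in place of the IDR list, the share of X genes with a promoter peak ranged from 12.3 to 14.9% and its ratio to autosomes from 1.08 to 1.21, the share of peaks at promoters from 35.2 to 37.7%, the divergent share from 20.4 to 21.2%, the interaction of X with a divergent partner from -0.47 to -0.28, and the difference in the strongest 25% from -1.98 to -1.36. With replicate 1 alone the promoter share on X was above that of autosomes (35.2 against 34.2%) and with replicate 3 alone it was below (37.7 against 43.2%, Fisher's exact test, adjusted p = 0.00881). Within 200 bp there were 172 X promoter peaks, 19.4% of X peaks were at promoters (24.3% on autosomes, Fisher's exact test, adjusted p = 0.0136), 47.1% were above the median signal (50.6% on autosomes), and 15.7% were divergent. Within 1000 bp the gene share was 17.7% with a ratio of 1.21, and the difference in the strongest 25% was -0.48. There 75% of peaks overlapped peaks among the strongest of both replicates (adjusted p = 0.0215 by Fisher's exact test). With IDR peaks above the median signal there were 176 X promoter peaks, 29 listed genes with a peak, and 83.0% upstream summits against 80.9% on autosomes. In genes with 1 start site the interaction was -0.0038. Searched in whole peaks, 1 motif passed. GAGAGAG was more frequent on X than on autosomes with replicate 1 alone (6.60 against 6.16%, the range over both being 5.99 to 6.60), within 200 bp (6.40 against 5.31%) and within 1000 bp (7.24 against 7.21%). The cause of these changes was not tested. Without counts of reads, depth sets no limit that could be computed, and no paired analysis was possible because there is 1 group.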

Other observations

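The X promoter peaks at non-coding RNA starts alone, those of the short entries inside mir genes included, formed a small group. They numbered 16 of 314 (5.10%), against 95 of 1252 on autosomes (7.59%, Fisher's exact test, two-sided, adjusted p = 0.252). Their median signal was 342, above the 189.9 of all 314, and lncRNA:CR44619 supplied the highest. The lower quartile, 141.8, was close to the 139.8 of all 314. Signals of the 95 autosomal peaks of this kind are not given. At the other end, the 35 summits within 50 bp of a start had a median signal of 151 and ran up to 2090.3 at Ugalt, followed by 776.4 at CG32772. The 83 peaks that did not overlap peaks among the strongest of both replicates had a median of 133. They lay closer to the start (median 79 bp upstream) than the 231 that did (158 bp upstream). Median distances and signals here are descriptions with no test.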
